A study of Mus musculus with 1307 samples.

Results

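Wif1, Sost, Lgr5, Lgr6, Rspo1, Rspo3, Sfrp1, Sfrp2, Frzb and Dkk3 encode secreted inhibitors of Wnt signalling, R-spondins and receptors of R-spondins. These 10 genes were taken by name from the 46517 genes counted in single cells of the mouse heart, and each matched 1 row of the table. The inventory held 1307 cells of 8 adult mice, read with Smart-Seq2, which copies whole transcripts to cDNA and amplifies them without molecular identifiers. ACTA2GFP:CSPG4dsRED mice, called double-reporter mice here, carry a green reporter named for Acta2 (smooth muscle actin) and a red reporter named for Cspg4 (the NG2 proteoglycan of mural cells). They gave 368 cells (mouse 1), 245 cells (mouse 2) and 336 cells (mouse 3), while 347 cells were from C57BL/6 mouse 1, which carries no reporter in its label. A further 4 mice (C57BL/6, CSPG4dsRED and ACTA2GFP) had 1 to 4 cells each, 11 in all. The animals were 8 to 30 weeks old and male in the series text, whereas the labels of double-reporter mouse 3 read female, and those of ACTA2GFP mouse 1 read female for 1 cell and male for 2. No plate held cells of more than 1 of the 4 larger mice, and mouse and plate therefore cannot be told apart. The gate of the cell sort is not given in the sources used here.

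Wnt proteins are secreted ligands that bind Frizzled receptors on the cell surface, and in the canonical branch LRP co-receptors as well, after which beta-catenin accumulates and enters the nucleus. WIF1 and the secreted Frizzled-related proteins (SFRP1, SFRP2 and FRZB) hold Wnt ligands outside the cell, sclerostin (SOST) blocks the LRP co-receptors, and R-spondins act through LGR receptors to keep Frizzled receptors on the surface. In the heart the pathway is best known for shaping the cushions that become valves, and several of its secreted inhibitors are made by fibroblasts.

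Cells were grouped by clustering on other genes, since the 10 genes, the rest of the Wnt pathway and Rgs5 were left out of that step, and clusters were named from marker genes. Fibroblast-like cells fell into 160 valve-like cells (Fmod, Chad, Comp), 270 interstitial cells (Pdgfra, Tcf21, Lamc3) and 17 matrix cells (Cilp, Thbs4, Postn). Smooth muscle-like cells were split by Rgs5, a regulator of G-protein signalling that is abundant in pericytes and in part of the smooth muscle, at 100 CPM (counts per 1000000 counts of the cell): 82 cells lay below and 143 at or above it. The set also held 73 pericyte-like cells, 76 Schwann-like cells, 71 endocardial-like, 245 endothelial-like and 14 lymphatic endothelial-like cells and 40 macrophage-like cells. Cluster 6, with 102 cells led by Vtn and Chrdl1, carried equal numbers of smooth muscle and pericyte markers and stayed unnamed, as did cluster 14 with 14 cells. The 8 smooth muscle markers (Acta2, Myh11 and others) summed to between 17134 and 24197 CPM in smooth muscle-like sums, and between 840 and 1554 CPM in valve-like sums. The mural and fibroblast classes came almost wholly from the double-reporter mice, and the endothelial classes from C57BL/6 mouse 1. The median cell of double-reporter mouse 1 held 340988 counts, that of mouse 2 held 220866, that of mouse 3 held 208888, and that of C57BL/6 mouse 1 held 307957.

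Levels below are CPM of the counts summed over the cells of a class in 1 mouse, and SDs are over mice. A cell was counted as carrying a gene at 100 CPM or more, a limit added after the planned limit of 10 CPM had been applied. The lower limit also counted cells of a class that should lack the genes. In the 30 macrophage-like cells of double-reporter mouse 3, 33.3% had at least 10 CPM of Dkk3 and 23.3% had at least 10 CPM of Frzb, while none of the 10 genes reached 100 CPM in any of these cells. A share of 0 of 30 cells allows a true share of up to 10%. PCR copies of 1 molecule cannot be recognised in these counts, so intervals and limits cover counting error only. Classes and genes were measured in the same cells, and a p-value over mice therefore says only whether a difference repeated from mouse to mouse.

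**Figure D1:**
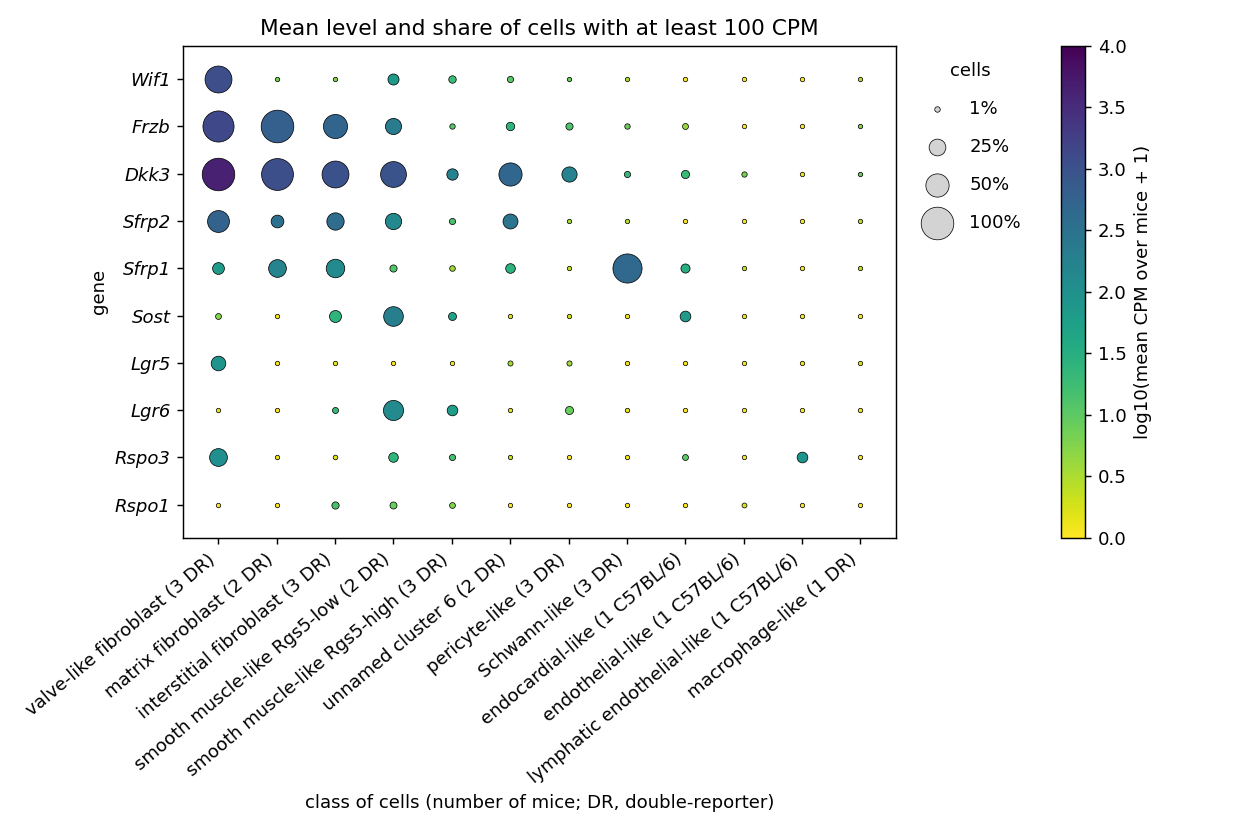
Level of the 10 genes (rows) in each cell class (columns), with colour for log10(mean CPM over mice + 1) and dot area for the share of cells at 100 CPM or more. Columns give double-reporter (DR) mice, except the endocardial-like, endothelial-like and lymphatic columns, which are C57BL/6 mouse 1 alone. The 4 genes Wif1, Frzb, Dkk3 and Sfrp2 are high in valve-like cells, Sost and Lgr6 in Rgs5-low smooth muscle-like cells, and Sfrp1 in Schwann-like cells.

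Genes of these families lie scattered over the genome (GRCm38, GENCODE M21). Wif1 spans chr10:121033960-121100650 on the plus strand and Lgr5 chr10:115450311-115587780 on the minus strand. Rspo3 lies on the same chromosome at chr10:29452416-29535867 on the minus strand, and Sost at chr11:101962458-101967015 on the minus strand. Lgr6 spans chr1:134983301-135105276 and Frzb chr2:80411970-80447625, both on the minus strand. Sfrp2 lies at chr3:83766321-83774316 on the plus strand, Rspo1 at chr4:124986430-125009099 on the plus strand, Dkk3 at chr7:112116017-112159057 on the minus strand and Sfrp1 at chr8:23411502-23449632 on the plus strand. Counts were taken over exons, whose summed length ran from 1938 bases (Rspo1) to 10264 bases (Lgr5). Over all cells Dkk3 had the most counts, 310124 with 455 cells at 100 CPM or more, and Rspo1 the fewest, 1170 with 13 such cells. Exons of Sfrp2 overlap the antisense gene Gm26771 over 347 bases, and since the strand setting of the counting was not given, the split of reads between the 2 genes is uncertain.

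The promoters of a pair of genes high in valve-like fibroblasts (Wif1 and Frzb) and of a pair high in Rgs5-low smooth muscle-like cells (Sost and Lgr6) are shown, because these pairs were high in different cells. Each is the 250 bases upstream of the RefSeq start on GRCm38.p6, written 5′ to 3′ on the gene's strand, with matches to the motifs named below in capitals.
Wif1 (chr10:121033754-121034003, plus strand): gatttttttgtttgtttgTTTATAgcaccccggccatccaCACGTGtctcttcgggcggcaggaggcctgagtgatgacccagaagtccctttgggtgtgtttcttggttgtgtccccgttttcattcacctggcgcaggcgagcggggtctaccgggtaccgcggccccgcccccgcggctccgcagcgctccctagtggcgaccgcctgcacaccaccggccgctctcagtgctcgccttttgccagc
Frzb (chr2:80447397-80447646, minus strand): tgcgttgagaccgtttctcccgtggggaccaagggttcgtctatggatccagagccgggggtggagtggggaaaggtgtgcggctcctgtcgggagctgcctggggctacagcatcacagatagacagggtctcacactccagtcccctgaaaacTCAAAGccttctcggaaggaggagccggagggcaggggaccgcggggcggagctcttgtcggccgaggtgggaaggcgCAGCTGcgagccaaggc
Sost (chr11:101967016-101967265, minus strand): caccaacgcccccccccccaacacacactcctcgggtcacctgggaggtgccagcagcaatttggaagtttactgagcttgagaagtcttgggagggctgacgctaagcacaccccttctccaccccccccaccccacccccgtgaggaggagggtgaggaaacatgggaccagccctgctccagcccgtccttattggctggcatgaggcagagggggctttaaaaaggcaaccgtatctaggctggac
Lgr6 (chr1:135105277-135105526, minus strand): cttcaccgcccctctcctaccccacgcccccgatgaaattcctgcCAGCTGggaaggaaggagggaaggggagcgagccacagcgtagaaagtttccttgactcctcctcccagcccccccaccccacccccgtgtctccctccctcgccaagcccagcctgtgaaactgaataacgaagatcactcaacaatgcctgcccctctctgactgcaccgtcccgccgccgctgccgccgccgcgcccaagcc
The windows were searched on both strands for CTTTGA and CTTTGT (cores bound by TCF/LEF factors, which act with beta-catenin), CAGCTG and CACGTG (E-boxes) and TATAAA, and no matches overlapped. Frzb holds CTTTGA, which 13.8% of 32851 mouse promoters of this length also hold, and no promoter shown holds CTTTGT (16.5% of promoters). CAGCTG (13.0% of promoters) is in Frzb and Lgr6, CACGTG (6.02%) in Wif1 and TATAAA (12.4%) in Wif1 on the opposite strand, and Sost holds none of the 5. The Wif1 window has 21 CpG dinucleotides and those of Frzb and Lgr6 have 16 each, against a median of 6 over all promoters and 6 in Sost. The table also held promoters of Rspo1 and Sfrp2, so that 6 of the 10 genes matched.

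Counts summed per mouse and class were tested over all genes with edgeR's quasi-likelihood test, the mouse as a block and Benjamini-Hochberg adjustment at 0.05. In smooth muscle-like against fibroblast-like cells of 3 mice, 4 of the 10 members passed, where 4.53% of 17819 genes did. All of them (Lgr5, Frzb, Sfrp2 and Dkk3) had less in smooth muscle-like cells, and 2.30% of all genes were called in that direction. At a clustering resolution of 0.6 only Lgr5 of these stayed called (Frzb adjusted p = 0.0563, Sfrp2 0.0709, Dkk3 0.125, edgeR), and Lgr6 was called higher (log2 fold change 8.35, adjusted p = 0.00736). The classes themselves changed at that resolution. Fibroblast-like cells were 74, 102 and 247 in mice 1, 2 and 3, in place of 77, 115 and 252. Smooth muscle-like cells rose by as many in each mouse. The part of these cells in the changed calls was not tested. In pericyte-like against fibroblast-like cells of 2 mice, 6 of 9 members tested were lower in pericyte-like cells, where 3.13% of genes passed and 1.89% were called lower. In smooth muscle-like against pericyte-like cells of 2 mice, Sost alone of 9 members tested passed (2.27% of genes passed, 1.30% higher in smooth muscle-like cells). In Schwann-like against fibroblast-like cells of 3 mice, 4 of 10 members passed, all lower in Schwann-like cells (2.96% of genes passed, 1.58% lower). In Schwann-like against smooth muscle-like cells of 3 mice, 3 of 9 passed, with Sfrp1 higher and both Sost and Lgr6 lower in Schwann-like cells (4.51% of genes passed, 2.35% higher and 2.15% lower). Comparisons with fibroblast-like cells share those cells and are not independent of each other. The median log2 fold change of the members was -2.88 in smooth muscle-like against fibroblast-like cells, where the median of all genes was -0.20, and -6.11 in pericyte-like against fibroblast-like cells, where it was -0.60.

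**Figure D2:**
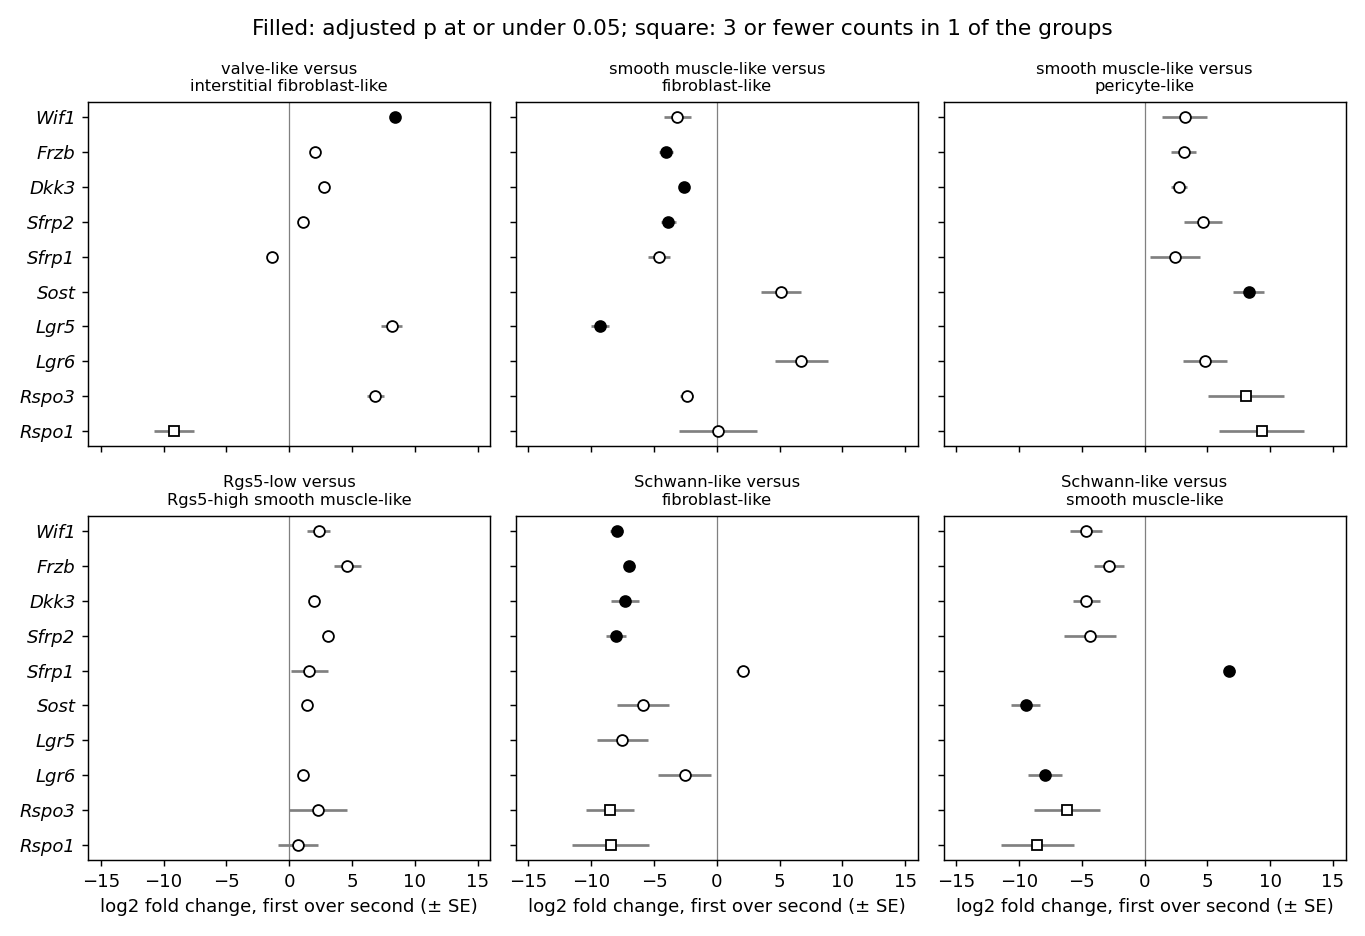
Log2 fold change (x axis) of each member (y axis) in the class comparisons, first-named class over second-named class, with bars of 1 SE from edgeR, filled symbols for adjusted p-values at or under 0.05 and squares where 1 of the classes had 3 or fewer counts. Lgr5, Frzb, Sfrp2 and Dkk3 lie left of 0 with filled symbols in smooth muscle-like against fibroblast-like cells, while Sost and Lgr6 lie right of 0 with open ones.

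Wif1, which binds Wnt ligands through its WIF domain, was called between valve-like and interstitial fibroblast-like cells. Valve-like cells had 1048 CPM in double-reporter mouse 1, 1339 CPM in mouse 2 and 1019.8 CPM in mouse 3. Interstitial cells had 5.73, 5.33 and 2.41 CPM in the same mice. The levels did not overlap, and 71.4%, 68.3% and 63.0% of valve-like cells reached 100 CPM of Wif1, while 0 of 220 interstitial cells of mouse 3 did, which allows a share of up to 1.36%. The matrix cells stood with the interstitial ones at 7.40 CPM in mouse 2 and 4.15 CPM in mouse 3. In valve-like against interstitial cells, tested in the 2 mice that had 8 or more cells of both types, Wif1 was 1 of 16 genes called of 14944 (0.107%) and the only one of 8 members tested. Its log2 fold change was 8.39 ± 0.38 (SE, edgeR adjusted p = 0.0296), and 0.0669% of genes were called higher. The members next in adjusted p were Lgr5 (log2 fold change 8.17 ± 0.84, adjusted p = 0.0775), Rspo3 (6.87 ± 0.70, adjusted p = 0.0809) and Dkk3 (2.79 ± 0.32, adjusted p = 0.0898), and all 8 had an unadjusted p under 0.05, as did 1467 of the 14944 genes. Rspo3 was also called without the mouse block (edgeR adjusted p = 0.0376), Dkk3 (0.0154) and Rspo3 (0.0467) at a resolution of 0.6, and Frzb, Dkk3, Rspo3 and Lgr5 without the filter on low counts (0.0251, 0.00656, 0.00719 and 0.0101). DESeq2 called 7 of the 10 members in this comparison, where it called 6.54% of genes. The cell names depended on the clustering. Interstitial cells of mice 2 and 3 were 28 and 216 at a resolution of 0.6, in place of 41 and 220. At a resolution of 1.5, 94 of the valve-like cells took the name matrix, and matrix over interstitial cells then had a log2 fold change of 8.20 for Wif1 (edgeR adjusted p = 0.0193).

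Outside the fibroblasts Wif1 was scarce but not absent. Rgs5-low smooth muscle-like cells had 81.4 CPM in mouse 1 and 57.1 CPM in mouse 2, and 1 cell held 81.3% of the counts in mouse 2. Pericyte-like cells had 2.71, 8.06 and 11.1 CPM with no cell at 100 CPM, and Schwann-like cells averaged 2.17 ± 1.06 CPM (SD, n = 3). The 232 endothelial-like cells of C57BL/6 mouse 1 held no Wif1 count, which allows up to 0.0430 CPM. Pericyte-like cells were lower than fibroblast-like cells (log2 fold change -7.64 ± 0.63, edgeR adjusted p = 0.000160), as were Schwann-like cells (-7.98, adjusted p = 0.00312). Wif1 in smooth muscle-like cells was 41.9, 40.7 and 97.3 CPM, against 967, 718 and 112 CPM in fibroblast-like cells of the same mice. It was lower in 3 of 3 mice but not called (log2 fold change -3.15 ± 1.07, edgeR adjusted p = 0.195). Fibroblast-like cells of mouse 3 held 27 valve-like cells of 252, where mouse 1 held 70 of 77. Against valve-like cells alone, a setting added after seeing the data, the log2 fold change was -4.37 (adjusted p = 0.00613). The genes whose level followed Wif1 most closely over 25 sums of class and mouse were Kcnma1 (r = 0.88), Scx (r = 0.87), a tendon transcription factor, and Uts2r (r = 0.85). These are descriptions across sums that share cells, mice and depth.

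**Figure D3:**
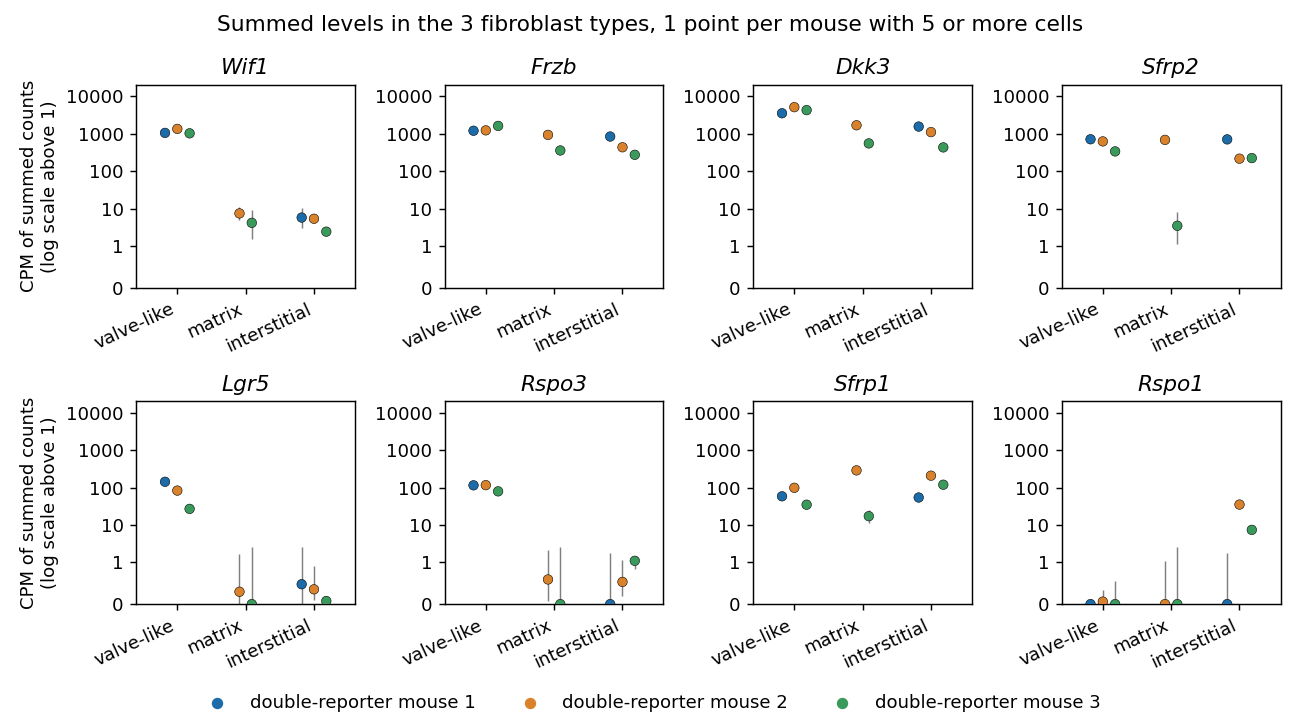
CPM of summed counts (y axis, logarithmic above 1 and linear below) of 8 members in valve-like, matrix and interstitial fibroblast-like cells (x axis), with 1 point per double-reporter mouse and lines for 95% Poisson intervals. Wif1 points of valve-like cells lie between 1019.8 and 1339 CPM and those of interstitial cells between 2.41 and 5.73 CPM, while Frzb and Dkk3 lie above 200 CPM in all 3 types.

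Frzb, the secreted Frizzled-related protein first known from cartilage, was present in every fibroblast type. It had 1195, 1225 and 1609 CPM in valve-like cells of mice 1, 2 and 3, against 838, 432 and 272 CPM in interstitial cells. The levels did not overlap and the order held in every mouse, yet the difference was not called (log2 fold change 2.07 ± 0.33, edgeR adjusted p = 0.161). Matrix cells had 926 CPM in mouse 2 and 355 CPM in mouse 3, and all matrix cells of both mice carried the gene. The share of cells at 100 CPM or more was 90.0%, 93.7% and 88.9% in valve-like cells and 66.7%, 46.3% and 48.2% in interstitial cells. Smooth muscle-like cells had 77.5, 115 and 8.62 CPM and fibroblast-like cells 1159, 909 and 418 CPM, and the difference was called (log2 fold change -4.07 ± 0.55, edgeR adjusted p = 0.0244). Pericyte-like (-6.63 ± 0.60, adjusted p = 0.000256) and Schwann-like cells (-6.98, adjusted p = 0.00312) were also lower than fibroblast-like cells. The closest genes over the 25 sums were Ltbp2 (r = 0.92), Fmod (r = 0.92), a small proteoglycan used to name the valve-like cells, and Sfrp2 (r = 0.90).

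Sfrp2, a Wnt-binding protein made by many fibroblasts, was higher in valve-like than in interstitial cells in the 2 mice tested, though not called. Mouse 1, with 6 interstitial cells, had nearly equal levels in both. Valve-like cells had 707, 621 and 335 CPM and interstitial cells 702, 215 and 222 CPM (log2 fold change 1.09, edgeR adjusted p = 0.410). The ranges overlapped. In matrix cells of mouse 2 the level was 681 CPM, of which 1 cell gave 90.6%, and in those of mouse 3 it was 3.46 CPM. Cluster 6, the unnamed mural cells, had 410.5 CPM in mouse 1 and 147 CPM in mouse 2, carried by 29.5% and 9.52% of cells. In those cells the 10 fibroblast markers summed to 10007 CPM in mouse 1 and 10514 CPM in mouse 2, and their part in the Sfrp2 level was not tested. Sfrp2 was lower than in fibroblast-like cells in smooth muscle-like (-3.86 ± 0.59, adjusted p = 0.0330), pericyte-like (-7.97 ± 0.61, adjusted p = 0.000124) and Schwann-like cells (-8.00, adjusted p = 0.00588), as log2 fold changes with edgeR. The call in smooth muscle-like cells was lost at a clustering resolution of 0.6 (adjusted p = 0.0709) or 1.5 (adjusted p = 0.186). Both resolutions also changed which cells the classes held. Its nearest genes were the overlapping antisense gene Gm26771 (r = 0.99), Pamr1 (r = 0.97) and Ccn5 (r = 0.96).

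Sfrp1, a relative of Sfrp2 with the same kind of Frizzled-like domain, was highest in Schwann-like cells, glial cells of nerves. Schwann-like cells had 601, 585 and 218 CPM in the double-reporter mice, and 208 CPM in the 12 cells of C57BL/6 mouse 1. Of these cells 88.2%, 83.3% and 66.7% carried Sfrp1, and 75% in the C57BL/6 mouse. Interstitial cells had 54.4, 208 and 119.6 CPM, and matrix cells of mouse 2 had 289 CPM, so that these levels overlapped with the lower Schwann-like ones. Schwann-like cells were higher than smooth muscle-like cells, which had 9.83, 3.78 and 1.62 CPM (log2 fold change 6.76 ± 0.47, edgeR adjusted p = 0.00171). Against all fibroblast-like cells, with 57.9, 159 and 108 CPM, Sfrp1 was higher in 3 of 3 mice without being called (2.07 ± 0.52, adjusted p = 0.117). Against valve-like cells alone, which had 58.7, 98.9 and 34.95 CPM, the log2 fold change was 2.84 (edgeR adjusted p = 0.00517, added after seeing the data). Fibroblast markers summed to 4065, 4532 and 2478 CPM in the Schwann-like cells of mice 1, 2 and 3, and to 14903, 21083 and 21124 CPM in interstitial cells, and the part of fibroblast RNA in the Schwann-like level was not tested. Among fibroblasts Sfrp1 was lower in valve-like than in interstitial cells in 2 of 2 mice tested, but this was not called (-1.39, edgeR adjusted p = 0.336), and mouse 1, with 6 interstitial cells, had 58.7 CPM in valve-like and 54.4 CPM in interstitial cells. Pericyte-like cells had 2.03, 0.62 and 1.49 CPM, lower than fibroblast-like cells (-6.11 ± 1.27, edgeR adjusted p = 0.0327). The closest genes were Scd1 (r = 0.89), a fatty acid desaturase, Itgb8 (r = 0.87), an integrin subunit, and Gm26840 (r = 0.86).

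Dkk3, a divergent member of the Dickkopf family whose place in Wnt signalling is less settled than that of its relatives, had the highest level of the 10 genes in valve-like cells, per exon length as well as in CPM. It had 3506, 5089.5 and 4251 CPM there, against 1545, 1100.1 and 429 CPM in interstitial cells. The groups did not overlap. Of the 160 valve-like cells only 1, in mouse 1, lay under 100 CPM, as the shares of 98.6%, 100% and 100% show. Matrix cells had 1674 and 549 CPM in mice 2 and 3. Rgs5-low smooth muscle-like cells had 947 CPM in mouse 1 and 937 CPM in mouse 2, which was inside the interstitial range, and Rgs5-high cells had 203.9, 273 and 42.7 CPM. Pooled over mice, Dkk3 was 101 CPM in interstitial cluster 3, 881 CPM in cluster 4 and 1702 CPM in cluster 12. Cluster 12 gave 3 of 6, 15 of 41 and 8 of 220 interstitial cells in mice 1, 2 and 3. The interstitial range therefore cannot be told apart from the mix of these clusters. In smooth muscle-like cells as a whole the level was 558, 516 and 138 CPM, against 3340, 3294 and 845 CPM in fibroblast-like cells. The log2 fold change of -2.61 ± 0.14 was called (edgeR adjusted p = 0.00467), though not at a clustering resolution of 0.6 (adjusted p = 0.125). At that resolution the smooth muscle-like class held more cells and the fibroblast-like class fewer. Pericyte-like cells had 197, 32.3 and 292 CPM, lower than fibroblast-like cells in the 2 mice tested (-5.43 ± 0.64, adjusted p = 0.00118). Schwann-like cells had 7.85, 9.64 and 43.2 CPM (-7.29, adjusted p = 0.0277), although the call was lost without mouse 1 (adjusted p = 0.0645) or mouse 2 (adjusted p = 0.126). Per kilobase of exon, valve-like cells averaged 1275 CPM of Dkk3, 468 of Wif1, 415 of Frzb and 258 of Sfrp2. Dkk3 followed Mfap4 (r = 0.91), Sfrp2 (r = 0.90) and Mfap5 (r = 0.88), both Mfap proteins being parts of elastic microfibrils.

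Sost encodes sclerostin, best known as the Wnt inhibitor that osteocytes make to restrain bone formation. Its highest levels here were in smooth muscle-like cells with little Rgs5. Rgs5-low cells had 236 CPM in mouse 1 and 151 CPM in mouse 2, against 79.7 and 67.1 CPM in Rgs5-high cells of the same mice and no count in the 20 Rgs5-high cells of mouse 3. The share of cells carrying it was 36.7% and 33.3% of Rgs5-low cells, and 6.76%, 6.12% and 0% of Rgs5-high cells. The level in Rgs5-high cells rested on few cells, since 1 cell gave 51.6% of the counts in mouse 1 and 60% in mouse 2. The log2 fold change of Rgs5-low over Rgs5-high cells was 1.39 ± 0.27 (edgeR adjusted p = 0.195). In that comparison only Rgs5 itself, which defined it, was called of 14233 genes (0.00703%), 0 genes were called higher, and 1495 had an unadjusted p under 0.05. No member passed there. Those nearest to it were Dkk3 (2.02 ± 0.19, adjusted p = 0.0771), Sfrp2 (3.06 ± 0.45, adjusted p = 0.123) and Sost. All 9 members tested had a positive log2 fold change, with a median of 2.02 where that of all genes was -0.03. DESeq2, which called 6.77% of genes, called Dkk3, Frzb, Sfrp2, Sost and Wif1.

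Across finer bands of Rgs5 the Sost level fell off at high Rgs5. The bands pool cells of all double-reporter mice, so their values carry no error over mice. Sost was 299 CPM in the 34 cells with under 30 CPM of Rgs5, 163 CPM in the 45 cells between 30 and 100 CPM, and 785 CPM in the 6 cells between 100 and 300 CPM. It was 183 CPM in the 18 cells up to 1000 CPM, 29.0 CPM in the 24 cells up to 3000 CPM and 0.63 CPM in the 95 cells above that. The share of cells at 100 CPM or more was 44.1%, 31.1%, 50%, 22.2%, 4.17% and 0% over the same bands, and 0 of 95 cells allows up to 3.16%. Dkk3 ran the same way at 1087, 799, 888, 677, 239 and 21.96 CPM, as did Frzb at 182, 169, 135, 35.2, 2.8 and 3.2 CPM. The Rgs5 limit is a cut in a range, and 25 of the 222 cells of double-reporter mice lay between 50 and 200 CPM.

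The clusters, which were made without Rgs5 and without the members, gave wider differences than the Rgs5 limit. Cluster 8 (73 cells, led by Cnn1 and Myh11) had 219 CPM of Rgs5 and cluster 1 (149 cells, led by Myh11 and Olfr78) had 4767 CPM. Sost reached 328 CPM in cluster 8, where 50.7% of cells carried it, and 0.81 CPM in cluster 1 with no carrier. Dkk3 was 1224 CPM in cluster 8 and 21.1 CPM in cluster 1, and Lgr6 was 193 and 23.9 CPM. Between the clusters, a setting added after seeing the data, 3 mice entered in place of 2, mouse 3 with only 4 cells of cluster 8, so that the grouping and the mice changed together. There edgeR called Sost (log2 fold change 9.28 ± 0.90, adjusted p = 0.0300), Wif1 (5.22, adjusted p = 0.0335) and Dkk3 (5.28, adjusted p = 0.0464). These were 3 of 9 members tested, where 77 of 13791 genes were called, 37 of them higher in cluster 8. Since the clusters were made from these cells, the genes that follow them include some that shaped them.

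Fibroblast markers moved with the same split. The 10 markers (Dcn, Col1a1, Pdgfra and others) summed to 4630 CPM in Rgs5-low cells of mouse 1 and 5149 CPM in those of mouse 2, against 1313, 1856 and 1768 CPM in Rgs5-high cells of mice 1 to 3. In Rgs5-low cells 9 of the 10 markers reached 10 CPM in mouse 1 and 7 of 10 in mouse 2. Interstitial cells had 14903 to 21124 CPM. In the 54 Rgs5-low cells with at least 2000 CPM of these markers, Sost was 266 CPM with 26 carriers, and in the 25 cells under 2000 CPM it was 115 CPM with 3 carriers. Dkk3 was 1238 CPM with 50 carriers in the marker-rich cells and 82.6 CPM with 2 carriers in the others, and Lgr6 163 CPM with 24 carriers and 48.6 CPM with 5. Frzb had 237 CPM in the marker-rich cells and 1.56 CPM in the others, Sfrp2 157 and 2.03 CPM, and Wif1 117 and 1.56 CPM. Split by Dcn at 100 CPM instead, Sost was 181 CPM in the 29 cells with more Dcn and 255 CPM in the 50 with less, whereas Frzb was 396 and 38.1 CPM. Fibroblast-like cells had 15.7, 6.04 and 0.0643 CPM of Sost in mice 1, 2 and 3. Of the Rgs5-low cells 55 were of cluster 8 and 24 of cluster 1. The marker-rich cells were nearly all of cluster 8 and the others mostly of cluster 1. All 3 Sost carriers under 2000 CPM of the markers were cells of cluster 8. The split by marker sum and the split by cluster therefore cannot be told apart here. The part of fibroblast RNA in these differences was not tested. Among smooth muscle-like cells under 2000 CPM of fibroblast markers, Rgs5-low over Rgs5-high cells gave log2 fold changes of 6.53 for Sost, -0.80 for Frzb, -1.60 for Sfrp2 and -1.60 for Wif1, none called. Mice 1 and 2 entered there with 12 Rgs5-low cells each. The Sost value rested on 1 carrier per mouse, at 586 and 588 CPM, both of cluster 8.

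**Figure D4:**
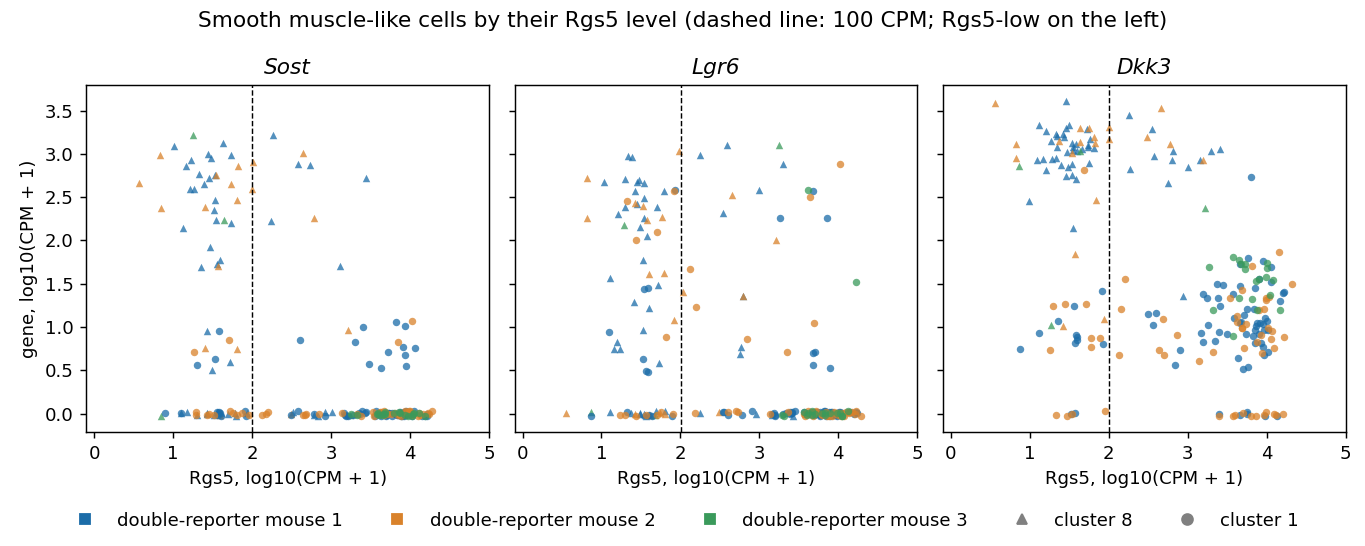
Level of Sost, Lgr6 and Dkk3 (y axis, log10(CPM + 1)) against that of Rgs5 (x axis, log10(CPM + 1)) in single smooth muscle-like cells, coloured by double-reporter mouse, with triangles for cluster 8, circles for cluster 1 and a dashed line at 100 CPM of Rgs5. Cells with high Sost are triangles and thin out to the right, where 0 of the 95 cells with at least 3000 CPM of Rgs5 reach 100 CPM.

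Set against other classes, Sost in smooth muscle-like cells was 154, 97.7 and 102 CPM, of which 1 cell gave 95.0% in mouse 3. Pericyte-like cells had 0.338, 0.620 and 1.49 CPM, and the log2 fold change of smooth muscle-like over pericyte-like cells was 8.30 ± 1.23 (edgeR adjusted p = 0.00659, 2 mice). It was the single member called there, with Dkk3 (2.75 ± 0.65, edgeR adjusted p = 0.103) next. All 9 members tested had a positive sign, with a median log2 fold change of 4.63 where that of all genes was 0.46. Schwann-like cells had less Sost than smooth muscle-like cells (-9.46 ± 1.15, edgeR adjusted p = 0.00812). Against fibroblast-like cells Sost was higher in 3 of 3 mice but not called (5.10 ± 1.57, adjusted p = 0.165). The genes that followed Sost over the sums were 1190005I06Rik (r = 0.87), P2rx1 (r = 0.79), an ATP-gated channel of vascular smooth muscle, and Perp (r = 0.79).

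Sost was also found in interstitial cells, at 59.2, 16.7 and 0.0740 CPM with 2, 1 and 0 carriers in mice 1, 2 and 3. All 3 carriers were of interstitial cluster 12 (26 cells, led by Fmod and Gdf10), which had 46.3 CPM pooled over mice. Interstitial clusters 3 (134 cells) and 4 (107 cells) had 0.090 and 0.073 CPM with no carrier. Sost was found too in the endocardial-like class, the lining of the heart chambers, seen in 1 mouse and therefore without a test. In C57BL/6 mouse 1 it had 66.5 CPM in 66 endocardial-like cells (95% Poisson interval 63.2 to 70.1) and 0.143 CPM in 232 endothelial-like cells (0.0687 to 0.263). Of the endocardial-like cells 6 reached 100 CPM, 9.09% with an exact binomial interval of 3.41% to 18.7%, and the highest had 1437 CPM. No endothelial-like cell did, which allows up to 1.29%. Sfrp1 was likewise 29.7 CPM in endocardial-like cells, carried by 4 of them, and 1.06 CPM in endothelial-like cells. Dkk3 had 18.3 CPM in endocardial-like and 5.80 CPM in endothelial-like cells, with 3 and 2 carriers.

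Rspo3 and Rspo1, the R-spondins of the set, were found in different cells. Rspo3 was found mainly in valve-like cells, at 115, 117 and 79.6 CPM with 34.3%, 28.6% and 22.2% of cells as carriers, against 0, 0.533 and 1.11 CPM in interstitial cells. The levels did not overlap. Smooth muscle-like cells had 34.5, 7.35 and 1.62 CPM, and pericyte-like cells 0.135 CPM in mouse 1 and no count in mice 2 and 3. Pooled over mice, smooth muscle-like cluster 8 had 60.6 CPM with 10 carriers of 73 cells, and cluster 1 had 0.30 CPM with no carrier. Pericyte-like cells were lower than fibroblast-like cells (log2 fold change -9.85 ± 1.75, edgeR adjusted p = 0.0144), a call that rested on 2 counts and was lost when sums of at least 4 cells were allowed (adjusted p = 0.0509). In lymphatic endothelial-like cells of C57BL/6 mouse 1 the level was 84.3 CPM with 1 carrier of 11 cells. Genes that followed Rspo3 over the sums included 2010111I01Rik (r = 0.79) and Serpinb6b (r = 0.78).

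Rspo1 was the rarest member, with 13 carriers among all cells. Of these, 8 were interstitial, 4 were smooth muscle-like cells of cluster 1 and 1 was endothelial-like. Valve-like cells had 0, 0.0595 and 0 CPM in mice 1, 2 and 3, so that 1 count was found in all 160 of them, and interstitial cells had 0, 35.3 and 7.44 CPM. The log2 fold change of valve-like over interstitial cells was -9.20 without a call (edgeR adjusted p = 0.173), a fitted value that rests on that 1 count. Rspo1 followed Lamc3 (r = 0.83), a laminin chain among the interstitial markers, Adora1 (r = 0.82) and P2rx1 (r = 0.79).

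Lgr5, an R-spondin receptor best known from intestinal stem cells, was found mainly in valve-like cells. It had 143, 83.3 and 27.1 CPM there, and 0.478, 0.355 and 0.074 CPM in interstitial cells. Smooth muscle-like cells had 0.209, 0.0675 and 0 CPM against 132.3, 44.7 and 2.99 CPM in fibroblast-like cells, and the difference was called (log2 fold change -9.28 ± 0.73, edgeR adjusted p = 0.00717). Without mouse 1 it was no longer called (-9.26, adjusted p = 0.0971). Lgr5 was a gene of a minority of cells, carried by 27.1%, 17.5% and 11.1% of valve-like cells. Pericyte-like cells of mouse 1 had 8.26 CPM, of which 1 cell gave 97.5%. The closest genes were Ucma (r = 0.92), a cartilage matrix protein, Uts2r (r = 0.90) and Cyp2e1 (r = 0.89).

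Lgr6, the other R-spondin receptor of the set, was the counterpart in smooth muscle. Rgs5-low cells had 144 CPM in mouse 1 and 106 CPM in mouse 2, carried by 36.7% and 37.0% of cells, and Rgs5-high cells had 74.1, 44.3 and 62.8 CPM, carried by 10.8%, 6.12% and 10%. The levels of the 2 sets did not overlap, but the difference was not called (log2 fold change 1.13 ± 0.32, edgeR adjusted p = 0.362). Unlike Sost it was still present at the highest Rgs5, with 22.9 CPM and 5 carriers among the 95 cells with at least 3000 CPM. Smooth muscle-like cells as a whole had 107.6, 67.0 and 59.8 CPM against 0.513, 21.0 and 0.0804 CPM in fibroblast-like cells, higher in 3 of 3 mice and not called (6.72 ± 2.13, edgeR adjusted p = 0.173). The 21.0 CPM of mouse 2 came from interstitial cells, in which 2 cells carried Lgr6 and 1 of them gave 79.1% of the counts. Both carriers were of interstitial cluster 12 (26 cells), which had 97.4 CPM pooled over mice. Interstitial clusters 3 and 4 had 0.090 and 0.073 CPM with no carrier. Against valve-like cells alone, which had 0.417, 0.476 and 0.149 CPM, the log2 fold change was 7.76 (edgeR adjusted p = 0.00470, added after seeing the data). Schwann-like cells were lower than smooth muscle-like cells (-7.95 ± 1.36, adjusted p = 0.0281), a call lost without mouse 1 (adjusted p = 0.162) or mouse 2 (adjusted p = 0.0986). Lgr6 followed Corin (r = 0.84), a membrane protease that activates atrial natriuretic peptide, Ky (r = 0.83) and Scn4b (r = 0.82), a sodium channel subunit.

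Within the valve-like class the members were not spread evenly. At a finer clustering of the same cells, cluster 4 (94 cells) had 1419.7 CPM of Wif1, 1636 CPM of Frzb and 735 CPM of Sfrp2, with Lgr5 in 10 cells. Cluster 12 (44 cells, with 470.2 CPM of Coch, a matrix protein) had 1067 CPM of Wif1 and 725 CPM of Frzb, and carried more Lgr5 (266 CPM, 22 cells) and Rspo3 (210.4 CPM, 26 cells). Cluster 13 (21 cells) had 162 CPM of Wif1 and 0.98 CPM of Rspo3, and 1011 CPM of Sfrp2. These values are pooled over mice and describe clusters that were made from the same cells.

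Single cells showed which members occurred together. Among valve-like cells, 18 of 33 with Lgr5 (54.5%) also carried Rspo3, an R-spondin that can bind it, against 23.6% of cells without Lgr5. By mouse the shares were 63.2% with and 23.5% without Lgr5 in mouse 1, 45.5% and 25% in mouse 2, and 33.3% (1 of 3 cells) and 20.8% in mouse 3. Rspo3 was likewise carried by 37.3% of cells with Wif1 and 14% of those without, again in the same order in 3 of 3 mice. Sfrp2 ran the other way, with 40.9% of cells with Wif1 and 54% of those without. The finer clusters of the valve-like class differed in these genes. Lgr5 was carried by 50%, 10.6% and 4.76% of finer clusters 12, 4 and 13, and Rspo3 by 59.1%, 23.4% and 0%. Wif1 was carried by 72.7%, 78.7% and 19.0% of them, and Sfrp2 by 20.5%, 55.3% and 52.4%. The shares in valve-like cells therefore cannot be told apart from the mix of finer clusters. Among Rgs5-low smooth muscle-like cells, 28 of 29 with Sost (96.6%) carried Dkk3, against 48% of those without Sost. Lgr6 was carried by 51.7% of the Sost cells and 28% of the others. All 17 Rgs5-low cells with Frzb also carried Dkk3. Rgs5-low cells mixed 55 cells of smooth muscle-like cluster 8 with 24 of cluster 1. Over all Rgs5 levels, Dkk3 was carried by 93.2% of cluster 8 and 1.34% of cluster 1, and Lgr6 by 43.8% and 6.71%. No cell of cluster 1 carried Sost or Frzb. These shares in Rgs5-low cells therefore cannot be told apart from the mix of clusters. In interstitial cells pooled over mice Sfrp1 and Frzb showed no such relation, since 48.4% of cells with Sfrp1 and 48.3% of cells without it carried Frzb. The mice differed, with 55.6% and 39.1% in mouse 2 (41 cells) and 47.2% and 48.6% in mouse 3 (220 cells). In the 6 cells of mouse 1 the shares were 0% and 80%. Depth differs between cells, and its part in these shares was not tested.

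**Figure D5:**
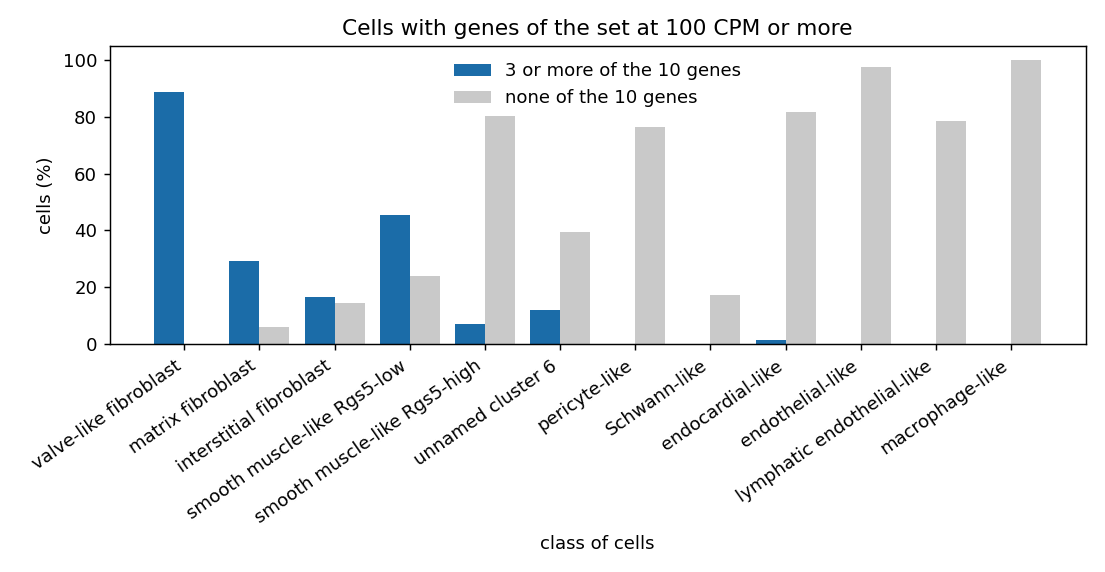
Percent of cells (y axis) of each class (x axis) with 3 or more of the 10 members (blue) or with none of them (grey) at 100 CPM or more, in double-reporter cells except for the endocardial-like, endothelial-like and lymphatic classes, where all mice were used. Of valve-like cells 88.8% carry 3 or more and none lack all, while 80.4% of Rgs5-high cells carry none.

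Counted per cell, valve-like cells carried a median of 4 members and at most 7, and no cell of 160 lacked all of them. At least 3 members were found in 142 of these cells, 88.8%. The same held for 45.6% of 79 Rgs5-low smooth muscle-like cells, 29.4% of 17 matrix cells, 16.5% of 267 interstitial cells, 11.9% of 101 cells of cluster 6 and 6.99% of 143 Rgs5-high cells. No member was found in 80.4% of Rgs5-high cells, 76.4% of 72 pericyte-like cells, 81.7% of 71 endocardial-like cells and 97.6% of 245 endothelial-like cells. In Schwann-like cells 17.2% lacked all members and the maximum was 2.

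The rest of the pathway was read from fixed lists beside the members. Of 9 Wnt ligands tested in smooth muscle-like against fibroblast-like cells, Wnt2 (0.0312 ± 0.0340 CPM against 20.4 ± 15.8 CPM, adjusted p = 0.0243) and Wnt11 (0.0399 ± 0.0354 CPM against 16.5 ± 9.07 CPM, adjusted p = 0.0260) were called lower (SD, n = 3, edgeR). None of 17 Frizzled and co-receptor genes passed there, 6 having an unadjusted p under 0.05 (3633 of 17819 genes did), and of 12 target and feedback genes only Bambi did (-1.66 on the log2 scale, adjusted p = 0.0441). Pericyte-like cells were lower than fibroblast-like cells in 1 of 8 ligands tested (Wnt5a), in 2 of 12 targets (Bambi and Tnfrsf19) and in 2 of 13 other inhibitors and R-spondin genes (Sdc4 and Igfbp4). Between smooth muscle-like and pericyte-like cells 2 pathway genes passed. Nkd1, a feedback inhibitor inside the cell, was higher in smooth muscle-like cells at 261 ± 34.5 CPM, against 28.2 ± 6.59 CPM in pericyte-like cells (adjusted p = 0.0112). Ptk7, a Wnt co-receptor, was lower at 5.16 ± 3.58 CPM, against 161 ± 18.7 CPM (SD over the 2 mice, edgeR adjusted p = 0.0154). Schwann-like cells, beside Sfrp1, were higher than smooth muscle-like cells in 2 more inhibitors, Sostdc1 (539 ± 214 CPM against 0.206 ± 0.291 CPM, adjusted p = 0.00207) and Sfrp5 (188 ± 102 CPM against 0.206 ± 0.292 CPM, adjusted p = 0.0141), and in Wnt6 (adjusted p = 0.0496). They were lower in Ror1, Fzd4 and Igfbp4. Against fibroblast-like cells they were higher in Sostdc1, Nkd2 and Ccnd1 and lower in Wnt5a, Bambi and Igfbp4. In valve-like against interstitial cells no gene of the ligand, receptor, target or other inhibitor lists passed, with 2, 2, 5 and 3 at an unadjusted p under 0.05, a level that 1467 of 14944 genes reached. None of these lists passed in Rgs5-low against Rgs5-high cells either, with 2, 4, 3 and 3 at that level, which 1495 of 14233 genes reached.

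Genes induced by enzymatic dissociation were followed as a measure of cell handling. Of 15 such genes, 2 (Atf3 and Zfp36) were higher in smooth muscle-like than in fibroblast-like cells. Against pericyte-like cells 4 (Nr4a1, Zfp36, Fos and Dusp1) were higher in smooth muscle-like cells. In pericyte-like against fibroblast-like cells Nr4a1 and Fos were lower, and in Schwann-like against smooth muscle-like cells Atf3 was lower. The part of handling in the member differences was not tested.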

How the data were processed

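Read counts per gene were deposited for single heart cells that had been sorted into 384-well plates and sequenced with Smart-Seq2, per the labels' protocols. The authors made these counts from reads aligned to GRCm38 (mm10). The submitters' processing notes name bcl2fastq, Bowtie, Bowtie2, featureCounts and Subread, whose versions, order and strand setting are not given in the sources used here. All 1307 cells passed a filter of 10000 counts and 500 genes, with 50476 to 811982 counts each (median 274702) and a median of 4549 genes.

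The members and lists were chosen with earlier results of these data known. Cells were clustered with scanpy 1.11.5 and leidenalg 0.10.2 (2000 variable genes, 30 components, 15 neighbours, resolution 1, seed 0) after 160 genes were withheld: members, pathway lists, Rgs5, sex-linked and mitochondrial genes. Naming a cluster took 3 or more class markers at 100 CPM and at 2 times their mean over clusters, with no tie between classes. It also took a marker of that class among the 10 leading genes, and no more markers of another class there. Cluster 14 had no own marker among its leading genes. Scrublet marked 7 cells as doublets, which stayed in. Names rest on expression alone.

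Counts were summed per mouse and class (at least 10 cells, or 8 within a class or with Schwann-like cells) and tested with edgeR 4.0.16 in R 4.3.3 (quasi-likelihood test, TMM, filterByExpr, Benjamini-Hochberg at 0.05), blocked by mouse, since each mouse gave both classes. Within a mouse, the sums of both classes deviated together in smooth muscle-like against fibroblast-like cells (r = 0.135, 0.180 and 0.172) and in valve-like against interstitial cells (r = 0.217). In the other comparisons they hardly did, with r between 0.0216 and 0.0773. Matrix cells qualified in 1 mouse and were not tested. On simulated counts with 200 genes changed by 4 on the log2 scale, the test found 99% to 100% of them over the 7 comparisons, and 1% to 4.76% of its calls were false. The simulation gave every gene the same spread, had no difference between mice and changed no weakly expressed gene. It therefore does not give the power of the test in these data. Alternatives were DESeq2 1.42.0, DESeq2 size factors in edgeR, no filter, no block, other cells and clusterings, and each mouse left out. Besides the members, the 3 largest called changes of each pathway list are named, and for each member the 3 genes with the highest Pearson correlation of log2(CPM + 1) over 25 sums of at least 8 cells, among 10899 genes with at least 50 CPM in a sum. For Rspo3, 1 of these is not reported here.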

Additional observations from a re-analysis of the deposited data

Results flagged for a closer look

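Cells outside the comparisons carried members above the level of their class. Among the 3 cells of ACTA2GFP mouse 1, whose labels name both sexes, 1 endothelial-like cell had 4777 CPM of Lgr6 and 540 CPM of Dkk3, and another had 330 CPM of Dkk3. Unnamed cluster 14, found in C57BL/6 mouse 1, had 26.3 CPM of Sost (156 counts) and 11.4 CPM of Sfrp1 (68 counts), above the 3 counts used as the limit of a count of 0. At least 28 counts stood behind each value. These are values of single cells or of a cluster in 1 animal, and no test was possible.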

How the results depend on the processing

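Of the member results that were called, 194 of their values under other settings kept direction and call and 16 lost the call, and of those not called 385 stayed so, 71 gained a call and 16 changed sign. The number of genes called moved more. Without the replicate block it was 1286 for smooth muscle-like against fibroblast-like cells (808 with it), 116 for smooth muscle-like against pericyte-like (325), 245 for pericyte-like against fibroblast-like (488), 3 for the Rgs5 split (1), 37 for valve-like against interstitial (16), 1848 for Schwann-like against fibroblast-like (495) and 1371 for Schwann-like against smooth muscle-like cells (651). In the same order DESeq2 called 3191, 1132, 1588, 960, 1125, 3002 and 2764. With no filter the counts were 640 for smooth muscle-like against pericyte-like, 829 for pericyte-like against fibroblast-like, 145 for the Rgs5 split and 208 for valve-like against interstitial cells. With sums of at least 4 cells, smooth muscle-like against pericyte-like gave 189. At resolution 0.6 edgeR called 0 genes in the Rgs5 split, where 1237 had an unadjusted p under 0.05 (DESeq2, at resolution 1, called 960). Valve-like against interstitial cells gave 70 there, and clusters 8 and 1 in place of the Rgs5 split gave 77, with mouse 3 and sums of at least 4 cells admitted at the same time. Leaving out 1 mouse gave 199 to 753 calls for smooth muscle-like against fibroblast-like, 275 to 611 for Schwann-like against fibroblast-like and 270 to 571 for Schwann-like against smooth muscle-like cells. With 2 mice, leaving out 1 left no residual degrees of freedom. Matrix cells could be tested with sums of at least 4 cells or at resolution 1.5, with 7 and 14 calls against interstitial cells, and 9 and 30 for valve-like against matrix cells.

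In smooth muscle-like against fibroblast-like cells, leaving out a mouse also made calls: Wif1 (log2 fold change -4.32, edgeR adjusted p = 0.0112) and Sost (3.67, adjusted p = 0.0237) without mouse 3, Lgr6 without mouse 2 (8.55, adjusted p = 0.0361) and Sfrp1 without mouse 1 (-5.62, adjusted p = 0.00829). Calls of Dkk3 and Sfrp2 there were lost without the block (adjusted p = 0.0507 and 0.0554), as were those of Dkk3 and Sfrp1 in pericyte-like against fibroblast-like cells (0.0766 and 0.0720).

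Sign changes were among uncalled values. Rspo1 in smooth muscle-like against fibroblast-like cells turned to -0.30 without the block, -0.0234 with DESeq2, -0.996 with cells of at least 100000 counts and 2000 genes, -0.35 and -0.00366 at resolutions 0.6 and 1.5, and lay between -2.46 and 3.04 with each mouse left out. Lgr6 in pericyte-like against fibroblast-like cells turned to 3.75 with sums of at least 4 cells. In the Rgs5 split Rspo1 turned to -0.0257 without the block, -9.42 at a limit of 30 CPM and -9.40 between clusters, Rspo3 to -0.0273 at resolution 0.6, and Sfrp1 and Sfrp2 to -1.44 and -1.19 at 30 CPM. Among cells under 2000 CPM of fibroblast markers Frzb, Sfrp2 and Wif1 turned to -0.80, -1.60 and -1.60. The cause was not tested, save that these settings use fewer cells or other sets. Valve-like against interstitial cells at resolution 1.5, and the pericyte-like comparisons with the stricter cells, could not be tested because 1 mouse qualified.

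Depth limits the rare members. With 2 or 3 mice a comparison measures little spread, and the classes were made from the same cells.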

Other observations

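Some ligands and target genes of the pathway, none of them called between the fibroblast types, had higher mean levels in valve-like than in interstitial cells, while Myc, another target gene, was at 15.2 ± 15.4 CPM in valve-like and 131.7 ± 67.0 CPM in interstitial cells (SD over 3 mice, edgeR adjusted p = 0.142). Wnt5a, a ligand mostly of the non-canonical branch, averaged 170.1 ± 119 CPM in valve-like and 69.4 ± 79.5 CPM in interstitial cells (SD over 3 mice), and was higher in 1 of the 2 mice tested (edgeR adjusted p = 1). Wnt9a, a ligand known from the developing valves, averaged 73.9 ± 23.7 CPM in valve-like and 30.5 ± 8.65 CPM in interstitial cells, higher in 2 of 2 mice tested (edgeR adjusted p = 0.408). Axin2, a common readout of canonical signalling, averaged 61.4 ± 50.3 CPM in valve-like, 9.05 ± 7.49 CPM in interstitial and 0.921 ± 0.394 CPM in Rgs5-high smooth muscle-like cells, and was higher in valve-like than in interstitial cells in 1 of 2 mice tested (edgeR adjusted p = 0.795). Tnfrsf19, a target gene, averaged 99.9 ± 31.1 CPM in valve-like and 0.268 ± 0.386 CPM in interstitial cells, higher in 2 of 2 mice tested (edgeR adjusted p = 0.0809). Rgs5-low smooth muscle-like cells had 33.5 ± 28.9 CPM of Wnt16 and 331 ± 64.6 CPM of Nkd1 (SD, 2 mice). Schwann-like cells had 596 ± 349 CPM of Nkd2, and 359 CPM in C57BL/6 mouse 1.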
